A study of Homo sapiens with 23 samples.

Results

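The genes described here are TXNIP, the arrestin-domain genes ARRDC2, ARRDC3 and ARRDC4, and MLXIP and MLX, which encode the transcription factor MondoA and its partner, in HCT116 cells that lack MLL4 or BAP1. The 6 genes were taken by name from the 28105 genes that have a row in every RNA-seq table, each represented by its RefSeq transcript row with the highest mean read count. They belong together by function, but ARRDC4 was selected on its measured changes, which had opposite signs in the 2 knockouts, so its values are given as a description and were not tested. Reads were found for 5 of the 6 genes, and these 5 were among the 16831 genes that entered the fit, from which no p-value is given for ARRDC4; TXNIP had no read in any library.

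HCT116 is a human colorectal carcinoma line, grown here in McCoy's 5A medium with 10% FBS. The study asked how the histone methyltransferase MLL4 (encoded by KMT2D), which marks enhancers, and BAP1, a tumour suppressor deubiquitinase that acts on histone H2A, depend on each other. MLL4 KO cells were set against WT cells and BAP1 KO cells against a control, with 2 libraries of poly(A)-selected RNA in each of the 4 groups. The control is labelled as WT in genotype, but the names of the deposited tables give osTir1, a plant auxin receptor used for induced protein degradation, for the BAP1 KO and control libraries and not for the MLL4 KO and WT libraries. BAP1 KO and control therefore come from a background of their own, and this background, any clonal difference and the making of the libraries cannot be told apart when control is compared with WT. The labels do not say whether the 2 libraries of a group come from separate cultures or clones, so p-values measure the spread between libraries, which may be technical.

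Alpha-arrestins are adaptor proteins built on a pair of arrestin folds, with a tail that recruits ubiquitin ligases of the NEDD4 family to membrane proteins and so sends receptors and transporters into the cell. TXNIP, the best known of them, also binds thioredoxin and lowers glucose uptake by promoting the internalisation of the transporter GLUT1. MondoA (MLXIP) pairs with MLX, enters the nucleus when glucose 6-phosphate rises, and binds carbohydrate response elements, which are pairs of E-boxes with 5 bases between them. TXNIP and ARRDC4 are its best described target genes in cultured cells.

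Because these genes are described as E-box targets, the 250 bases before the RefSeq start (assembly GRCh38.p14) were searched on both strands for the E-box CACGTG. In the sequences below, written 5′ to 3′ on the gene's strand, capitals mark CACGTG in the ARRDC4 window. In the TXNIP window, which holds no CACGTG, they mark a match to a looser pair of E-boxes, described after the sequences. The third window, of ARRDC3, is shown as a relative without a match.
ARRDC4, chr15:97960453-97960702, plus strand: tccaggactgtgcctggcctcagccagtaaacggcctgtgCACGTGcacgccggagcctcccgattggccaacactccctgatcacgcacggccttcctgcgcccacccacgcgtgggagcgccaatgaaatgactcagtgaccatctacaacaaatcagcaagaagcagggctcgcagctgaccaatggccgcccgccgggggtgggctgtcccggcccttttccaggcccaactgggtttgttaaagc
TXNIP, chr1:145996580-145996829, minus strand: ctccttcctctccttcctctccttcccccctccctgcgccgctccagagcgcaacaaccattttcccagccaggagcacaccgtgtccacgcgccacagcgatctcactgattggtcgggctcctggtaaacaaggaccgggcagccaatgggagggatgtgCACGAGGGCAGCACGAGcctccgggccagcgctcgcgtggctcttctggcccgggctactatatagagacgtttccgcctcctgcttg
ARRDC3, chr5:91383318-91383567, minus strand: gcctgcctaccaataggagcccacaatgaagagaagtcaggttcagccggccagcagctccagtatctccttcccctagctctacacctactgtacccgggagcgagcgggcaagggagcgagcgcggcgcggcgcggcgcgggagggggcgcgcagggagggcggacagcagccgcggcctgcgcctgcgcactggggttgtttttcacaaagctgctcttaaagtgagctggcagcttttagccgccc

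The ARRDC4 window held 1 CACGTG, which begins 210 bases before the start, and the MLX window held 1, which begins 50 bases before the start. The E-box occurred in 2228 of all 35116 such RefSeq windows (6.34%), and in none of those of ARRDC3, ARRDC2, TXNIP and MLXIP. A pair of E-boxes spelled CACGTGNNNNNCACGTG was found in 1 of all windows and in none of the 6 genes. The looser pair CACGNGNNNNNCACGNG, a form chosen after the sequences had been read (its reverse, CNCGTGNNNNNCNCGTG, is the other strand), was present in the TXNIP window 88 bases before the start and in 16 of all windows (0.0456%). The TXNIP window shown is 1 of 2 for that gene, and ARRDC3 and ARRDC2 also have 2. The second window of each held no match to any of these forms. The matches describe the letters in the searched windows only.

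The libraries held 24.8 to 42.2 M gene counts each. Of 10 colorectal epithelial markers 7 reached a mean of 1 CPM (counts per M gene counts, scaled between libraries by TMM), while CDX1 had no read and CEACAM5 and LGR5 were under 1 CPM; no endothelial or leukocyte marker and 1 of 6 fibroblast markers reached that level. The summed level of the colorectal markers was 5350 and 5360 CPM in MLL4 KO, against 3690 and 3650 CPM in WT. The BAP1 KO libraries summed to 2900 and 3380 CPM, against 5530 CPM in both control libraries. The groups of each pair did not overlap, in the same directions as for ARRDC4, and the part of this in the results was not tested. The targeted transcripts did not separate the groups: KMT2D lay at 280 to 406 CPM in MLL4 KO and 309 to 371 CPM in WT, and BAP1 at 57.4 to 67.4 CPM in BAP1 KO and 56.7 to 62.1 CPM in control. The mRNA level therefore does not check the knockout labels.

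**Figure D1:**
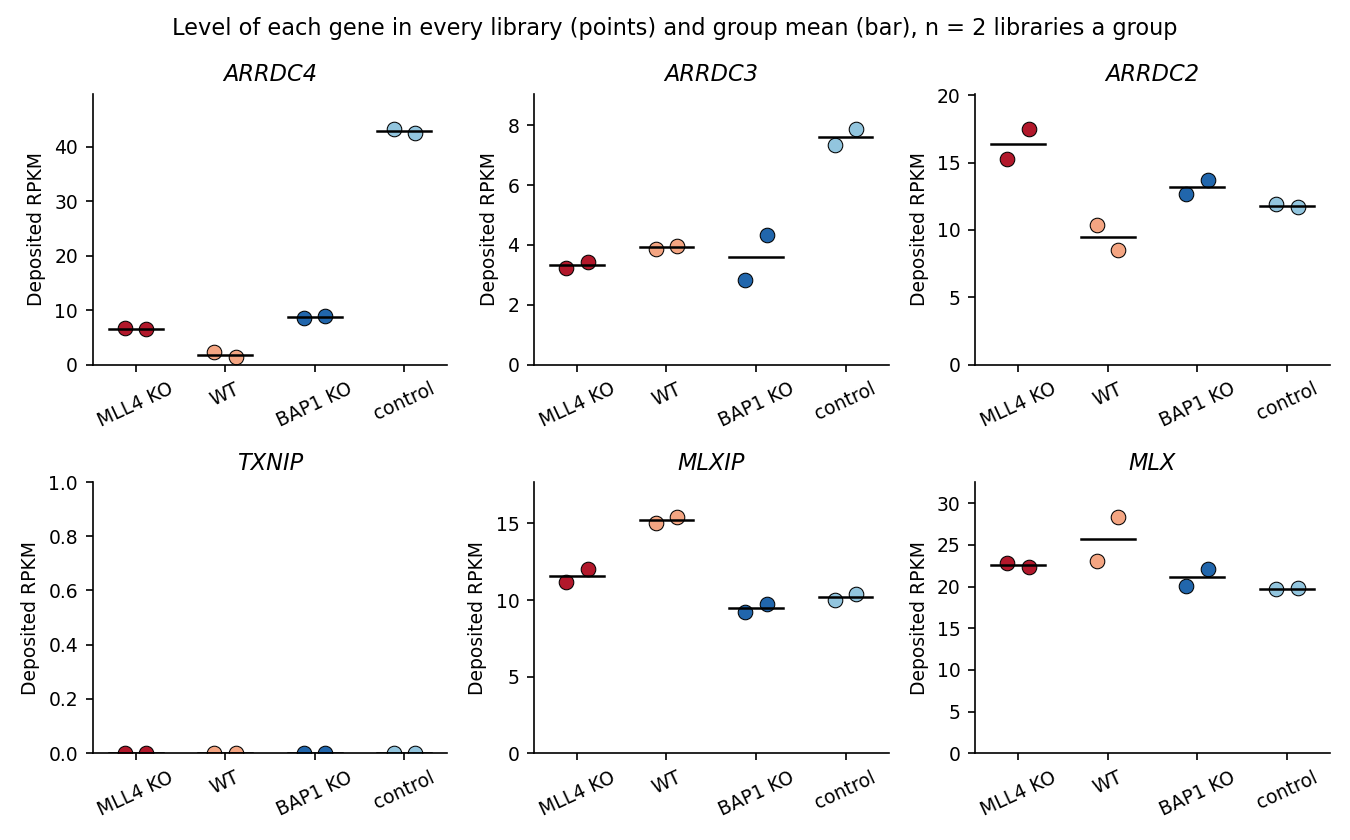
Level of the 6 genes as deposited RPKM (reads scaled to transcript length and to the reads of the library) on a linear axis that starts at 0; each point is 1 library and each bar the mean of the 2 libraries of a group. ARRDC4 stands at 6.67 and 6.55 in MLL4 KO, 2.25 and 1.43 in WT, 8.49 and 9 in BAP1 KO and 43.3 and 42.6 in control, and TXNIP stands at 0 in all 8 libraries.

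ARRDC4, an alpha-arrestin on chromosome 15 (97960703 to 97973833), had the widest range of the 6 genes. It was measured at 33.8 and 33.7 CPM in MLL4 KO, against 11.2 and 7.37 CPM in WT. In BAP1 KO it was measured at 43.2 and 46.4 CPM, against 232 and 225 CPM in control. Both MLL4 KO libraries lay above both WT libraries and both BAP1 KO libraries lay below both control libraries, so each knockout stood on the opposite side of its own unedited group.

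The means of ARRDC4 were 33.8 ± 0.0507 CPM in MLL4 KO and 9.29 ± 2.71 CPM in WT (SD, n = 2 each), a ratio of 3.63 and 1.87 on the log2 scale (SE 0.18). The means were 44.8 ± 2.27 CPM in BAP1 KO and 229 ± 4.42 CPM in control (SD, n = 2 each), a 5.1-fold lower level and −2.35 on the log2 scale (SE 0.17). The change in MLL4 KO minus the change in BAP1 KO was 4.22 (SE 0.25) on the log2 scale. No p-value is given for any of these, because ARRDC4 was chosen for them.

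The 2 unedited groups differed by more than either knockout did from its own: ARRDC4 averaged 229 CPM in control and 9.29 CPM in WT, a ratio of 24.6 (log2 fold change 4.63, SE 0.19). By size this was number 90 among the 16831 tested genes. All 4 knockout libraries, at 33.7 to 46.4 CPM, lay between the WT libraries and the control libraries, so the opposite signs of the knockout changes are read against unedited groups that stood at the lowest and the highest level of the series. Leaving out any 1 library kept the log2 change between 1.59 and 2.19 in MLL4 KO and between −2.40 and −2.30 in BAP1 KO. These refits use the values that ARRDC4 was chosen for and do not test them.

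ARRDC3, an alpha-arrestin on chromosome 5 (91368631 to 91383317) known for sorting of the beta-adrenergic receptor, passed the threshold in BAP1 KO (adjusted p under 0.05, edgeR quasi-likelihood test over all 16831 genes). It was measured at 15.2 and 23.7 CPM in BAP1 KO, against 41.4 and 43.8 CPM in control. The row used is a non-coding RefSeq transcript of the gene, with 477 and 664 counts in BAP1 KO and 1057 and 1710 in control. A coding row held nearly the same counts, 477 and 664 in BAP1 KO and 1057 and 1709 in control. Both BAP1 KO libraries were lower than both control libraries, although they differed from each other by more than the control libraries did. ARRDC3 fell by 1.13 on the log2 scale in BAP1 KO (SE 0.20, n = 2 each, adjusted p = 0.00442 by edgeR), and passed the threshold in all 20 alternative settings (highest adjusted p 0.0433).

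In MLL4 KO, ARRDC3 was measured at 17.2 and 18.6 CPM, against 20.3 and 21.6 CPM in WT. The groups did not overlap, but the difference of −0.23 (SE 0.20, n = 2 each, adjusted p = 0.429 by edgeR) did not pass. The difference between the 2 knockout changes was 0.90 (SE 0.28, adjusted p = 0.0562 by edgeR), which missed the threshold here and passed it in 7 of 19 alternatives, among them upper-quartile scaling (adjusted p = 0.0399) and the fit without BAP1 KO replicate 2 (1.26, adjusted p = 0.0157). Like ARRDC4, ARRDC3 was higher in control than in WT, by 1.02 on the log2 scale (SE 0.20, adjusted p = 0.00362 by edgeR). The BAP1 KO libraries, at 15.2 and 23.7 CPM, lay on either side of the WT libraries. The part of the high control level in the BAP1 KO change of ARRDC3 was not tested.

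ARRDC2, an alpha-arrestin on chromosome 19 (18001124 to 18014102) whose role is less well described, passed the threshold in MLL4 KO. It was measured at 48.5 and 56.3 CPM in MLL4 KO, against 32.4 and 27.5 CPM in WT. In BAP1 KO it was measured at 40.4 and 44.2 CPM, against 39.6 and 38.8 CPM in control. The MLL4 KO libraries were the highest of the series and the WT libraries the lowest.

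ARRDC2 rose by 0.81 on the log2 scale in MLL4 KO (SE 0.14, n = 2 each, adjusted p = 0.0121 by edgeR), whereas the change of 0.11 in BAP1 KO (SE 0.14, adjusted p = 0.607 by edgeR) did not pass. The call in MLL4 KO was lost without MLL4 KO replicate 2 (0.72, adjusted p = 0.0623 by edgeR) and in a fit to the 4 libraries compared (adjusted p = 0.094 by edgeR). The difference between the knockout changes was 0.70 (SE 0.19, adjusted p = 0.0407 by edgeR), and it passed in 11 of 19 alternatives. It was lost without MLL4 KO replicate 2, WT replicate 2, either BAP1 KO library or either control library (adjusted p of 0.0684 to 0.151). ARRDC2 was also higher in control than in WT, by 0.39 (SE 0.14, adjusted p = 0.0487 by edgeR), a call that held in 10 of 18 alternatives. That call was lost without WT replicate 2, either BAP1 KO library or either control library, with an adjusted p between 0.0665 and 0.194.

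TXNIP, on chromosome 1 (145992435 to 145996579), has 2 transcript rows in each table, and both stood at 0 reads in all 8 libraries. A count of 0 allows up to 3 counts, which comes to 0.0711 to 0.121 CPM before TMM scaling, depending on the library, and covers counting error only. Neighbouring genes were read: POLR3GL had 382 to 1163 reads a library and RBM8A, an exon junction complex gene, 3532 to 6237, while HJV, the next gene on the other side, had none. Of 19212 protein-coding genes, 2088 (10.9%) had no read in any library. Some transcript ids fill more than 1 row, with 76501 distinct ids in 88819 rows. MLXIP has such a repeated id, with reads in only 1 of its rows, whereas the 2 TXNIP rows have different ids. Whether the absence of TXNIP reads lies in these cells or in how reads were assigned was not tested, and TXNIP has no level that could be compared between groups.

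MLXIP, which encodes MondoA, on chromosome 12 (122078756 to 122147344), was measured at 117 and 128 CPM in MLL4 KO, against 155 and 164 CPM in WT. In BAP1 KO it was measured at 96.6 and 104 CPM, against 110 and 113 CPM in control. Both knockouts lay below their own unedited group without overlap, and WT was the highest group. MLXIP fell by 0.38 on the log2 scale in MLL4 KO (SE 0.11, n = 2 each, adjusted p = 0.0459 by edgeR), close to the threshold, and passed in 7 of 20 alternatives.

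The MLXIP call in MLL4 KO was lost without MLL4 KO replicate 1, MLL4 KO replicate 2, WT replicate 2, or any 1 of the BAP1 KO and control libraries (adjusted p of 0.071 to 0.137). The change in BAP1 KO was −0.16 (SE 0.11, adjusted p = 0.353 by edgeR), and the difference between the knockout changes was −0.22 (SE 0.16, adjusted p = 0.363 by edgeR). MLXIP was lower in control than in WT, at −0.51 on the log2 scale (SE 0.11, adjusted p = 0.00656 by edgeR). That call was lost without control replicate 1 (adjusted p = 0.0838) or control replicate 2 (adjusted p = 0.063).

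MLX, the dimerisation partner that MondoA and ChREBP share, on chromosome 17 (42567100 to 42573203), was measured at 72.8 and 72.7 CPM in MLL4 KO, against 72.7 and 92.1 CPM in WT. In BAP1 KO it was measured at 64.6 and 71.9 CPM, against 66.5 and 66.1 CPM in control. The groups overlapped in both pairs. The log2 changes were −0.18 in MLL4 KO (SE 0.13, adjusted p = 0.36 by edgeR) and 0.04 in BAP1 KO (SE 0.13, adjusted p = 0.852 by edgeR), and neither passed. Their signs were not stable: the value was 0.00 in MLL4 KO without WT replicate 2, and −0.04 in BAP1 KO without BAP1 KO replicate 2. Control against WT gave −0.31 (SE 0.13, adjusted p = 0.0891 by edgeR), which passed only when WT replicate 1 was left out (−0.48, adjusted p = 0.0101).

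**Figure D2:**
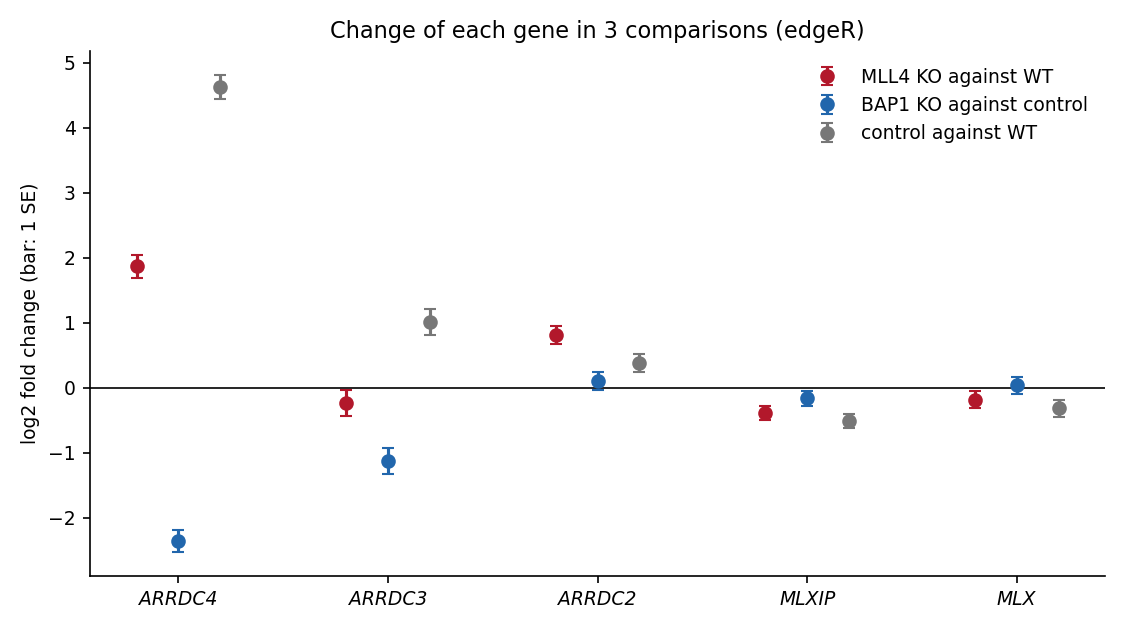
Log2 fold change of the 5 genes with reads in MLL4 KO (against WT), in BAP1 KO (against control) and in control (against WT), from the edgeR fit to all 8 libraries; bars are 1 SE. ARRDC4 lies at 1.87, −2.35 and 4.63, while MLX and MLXIP stay within 0.51 of 0 in all 3 comparisons.

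Counted over the 4 genes open to a test, ARRDC2 rose and MLXIP fell in MLL4 KO, beside 17.2% of all tested genes called in either direction, 8.14% higher and 9.11% lower (1370 and 1533 genes, or 1617 and 1049 with upper-quartile scaling). That background depends strongly on the fit: 2903 genes were called from all 8 libraries, 18 (0.11%) from the 4 libraries compared, 347 without MLL4 KO replicate 2, 690 without WT replicate 2 and 5326 without WT replicate 1. In BAP1 KO, ARRDC3 fell and the other 3 genes did not pass, beside 21.5% of all genes called, 11.7% higher and 9.81% lower, or 41% in the fit to the 4 libraries compared. The difference between the knockout changes passed for ARRDC2 alone, beside 15.4% of all genes, and control against WT passed for ARRDC3, ARRDC2 and MLXIP, beside 38.7%, with 19.2% higher and 19.5% lower. With 4 genes, no share is read from these counts.

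On the length-corrected RPKM scale, which allows levels of different genes to be compared, MLX was the highest of the 6 in MLL4 KO (mean 22.6 RPKM), in WT and in BAP1 KO. In control, ARRDC4 stood first, at 43 ± 0.466 RPKM, above MLX. ARRDC4 averaged 6.61 ± 0.0887 RPKM in MLL4 KO and 1.84 ± 0.58 RPKM in WT, and 8.74 ± 0.358 RPKM in BAP1 KO (SD, n = 2 each). It stood below MLX, ARRDC2 and MLXIP in these 3 groups, above ARRDC3 in both knockouts and below ARRDC3 in WT. ARRDC2 ranked above MLXIP in MLL4 KO, BAP1 KO and control, and below it in WT. In no group did the libraries of neighbouring genes in this order overlap.

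The genes whose levels followed ARRDC4 most closely over the 8 libraries (Pearson's r of log2(CPM + 1), among 12009 genes with a mean of at least 5 CPM) were PPIC, a cyclophilin of the secretory pathway (r = 0.989), SECISBP2, a selenoprotein translation factor (r = 0.987), COPG1, a subunit of the COPI vesicle coat (r = 0.986), MKNK2, a kinase that phosphorylates the translation factor eIF4E (r = 0.986), and ARHGAP40 (r = 0.984). The 8 points are 4 pairs of libraries that share a group, so r describes mainly 4 group levels; 88 genes reached 0.95. MKNK2 was measured at 214 and 285 CPM in MLL4 KO, 153 and 118 CPM in WT, 307 and 327 CPM in BAP1 KO, and 595 and 624 CPM in control. It shows the order of ARRDC4, with WT lowest, control highest and both knockouts between, over a smaller range.

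COPG1 had the same order over a still smaller range, at 231 and 234 CPM in MLL4 KO, 200 and 208 CPM in WT, 238 and 244 CPM in BAP1 KO, and 294 and 287 CPM in control. Among the other members r with ARRDC4 was 0.74 for ARRDC3, 0.38 for ARRDC2, −0.71 for MLXIP and −0.75 for MLX. No such comparison is possible for TXNIP.

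**Figure D3:**
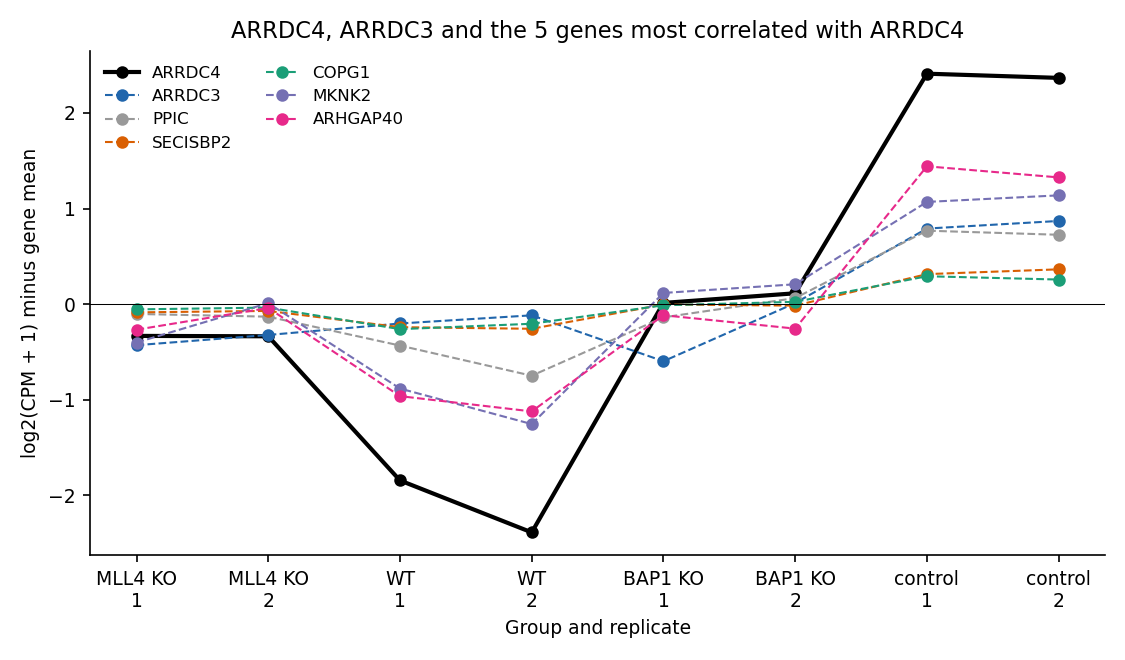
Level of ARRDC4, ARRDC3 and the 5 genes most correlated with ARRDC4 in each library, as log2(CPM + 1) minus the gene's mean over the 8 libraries; lines join the points of 1 gene and imply no order. ARRDC4 is lowest in the WT libraries and highest in the control libraries, and the 5 genes (r of 0.984 to 0.989) follow this order over a smaller range.

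The other genes around the alpha-arrestins were counted in 8 lists, to be read beside the shares of all tested genes called: 8.14% higher and 9.11% lower in MLL4 KO, and 11.7% higher and 9.81% lower in BAP1 KO. Of 4 tested arrestins outside the 6 genes, ARRB1, a beta-arrestin that desensitises G protein-coupled receptors, rose in both knockouts. ARRB1 was measured at 58.4 and 58.3 CPM in BAP1 KO, against 28.4 and 27.6 CPM in control (1.06 on the log2 scale, SE 0.12, adjusted p = 0.000601 by edgeR). It was measured at 41.7 and 44.3 CPM in MLL4 KO, against 32 and 29.3 CPM in WT (0.49, SE 0.12, adjusted p = 0.027 by edgeR). The MLL4 KO call was lost without MLL4 KO replicate 2, WT replicate 2 or either control library (adjusted p up to 0.116).

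In MLL4 KO 1 of the 4 arrestins rose and none fell (median log2 change 0.39), and in BAP1 KO 2 rose and none fell (median 0.24); ARRDC5 and SAG were too low to test. Of 9 tested NEDD4-family ligases, the enzymes that alpha-arrestins recruit, none passed in MLL4 KO (median −0.07), and SMURF2 and HECW2 fell in BAP1 KO (median 0.04). HECW2 was low throughout, at 0.957 and 0.285 CPM in BAP1 KO, against 3.02 and 2.51 CPM in control. Both ligase calls were lost without BAP1 KO replicate 2 or either control library, and that of SMURF2 also without BAP1 KO replicate 1 (adjusted p up to 0.101 for HECW2 and 0.186 for SMURF2). The median over all tested genes was 0.00 in MLL4 KO and 0.01 in BAP1 KO.

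The MAX network holds MLX, MYC and their partners. Of its 10 tested genes outside the 6, 2 rose and 2 fell in MLL4 KO (median 0.56), and none rose and 2 fell in BAP1 KO (median −0.18); MYCN was not tested. MYC, the proto-oncogene, was measured at 93.6 and 131 CPM in BAP1 KO, against 287 and 292 CPM in control. It fell by 1.36 on the log2 scale (SE 0.17, adjusted p = 0.00101 by edgeR), a call that held in all 20 alternatives. In MLL4 KO it was measured at 283 and 234 CPM, against 398 and 403 CPM in WT (−0.63, SE 0.17, adjusted p = 0.0347 by edgeR), a call lost without MLL4 KO replicate 2, WT replicate 2 or either control library (adjusted p up to 0.201).

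MXI1, a MAX partner that opposes MYC, rose in MLL4 KO, at 52.3 and 66.4 CPM against 37.7 and 35.6 CPM in WT (0.69, adjusted p = 0.016 by edgeR). Its call was lost without MLL4 KO replicate 2 or WT replicate 2 (adjusted p up to 0.0722). The unedited control libraries held more MXI1, at 87.7 and 86.5 CPM, and control against WT gave 1.25 (SE 0.13, adjusted p = 0.00023 by edgeR). In MLL4 KO the other called partners were MNT, which rose (0.76, adjusted p = 0.0234 by edgeR), and MXD3, which fell (−0.48, adjusted p = 0.0414 by edgeR). MXD1 fell in BAP1 KO (−1.10, adjusted p = 0.0078 by edgeR). MLXIPL, which encodes ChREBP, the other partner of MLX, was measured at 45.3 and 60.5 CPM in MLL4 KO, against 54.8 and 24.6 CPM in WT. In BAP1 KO it was measured at 99.2 and 91.5 CPM, against 85.4 and 77.2 CPM in control. Neither the change in MLL4 KO (0.42, adjusted p = 0.415 by edgeR) nor that in BAP1 KO (0.23, adjusted p = 0.669 by edgeR) passed.

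Glucose-responsive targets of MondoA and ChREBP other than TXNIP and ARRDC4 moved in both directions: of 16 tested, 3 rose and 3 fell in MLL4 KO (median −0.32), and 2 rose and 3 fell in BAP1 KO (median −0.18). G6PC1 and SLC2A2 were among those too low to test. KLF10, a transcription factor induced by carbohydrate and TGF-beta, was measured at 186 and 177 CPM in MLL4 KO, against 88.3 and 107 CPM in WT. It rose by 0.90 (SE 0.12, adjusted p = 0.00804 by edgeR). The unedited control libraries stood at a similar level, 182 and 185 CPM, and control against WT gave 0.91 (SE 0.12, adjusted p = 0.000765 by edgeR). ELOVL6, a fatty acid elongase, fell by 1.00 in MLL4 KO, to 39.4 and 28.1 CPM against 73.4 and 61.5 CPM in WT (adjusted p = 0.0132 by edgeR), a call lost without MLL4 KO replicate 2 (adjusted p = 0.0661).

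In BAP1 KO the same list held PFKFB4, a regulator of glycolysis, at 28.4 and 28.6 CPM, against 13.4 and 13 CPM in control (1.11, SE 0.16, adjusted p = 0.00214 by edgeR). HK2, the inducible hexokinase of tumours and a member of the glucose uptake list as well, was measured at 22.5 and 36.4 CPM in BAP1 KO, against 101 and 95.8 CPM in control. It fell by 1.74 (SE 0.25, adjusted p = 0.00219 by edgeR). Both calls held in all 20 alternatives.

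**Figure D4:**
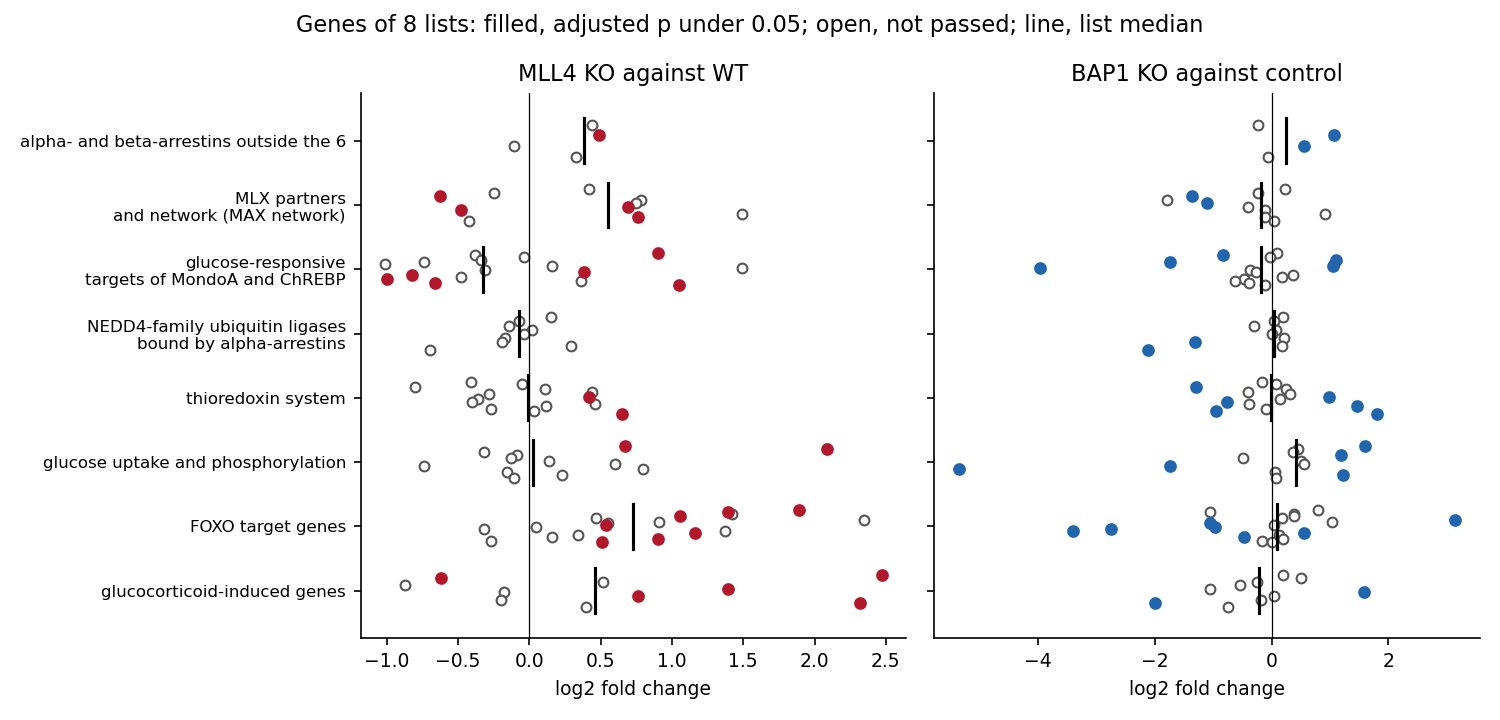
Log2 fold change of every tested gene of the 8 lists in MLL4 KO (left, against WT) and in BAP1 KO (right, against control); the horizontal scales of the panels differ. Filled points passed an adjusted p of 0.05, open points did not, and a vertical line marks the list's median, which in MLL4 KO is 0.72 for FOXO target genes and −0.32 for glucose-responsive targets.

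In the glucose uptake and phosphorylation list, where TXNIP acts on the transporters, 2 of 12 tested genes rose and none fell in MLL4 KO (median 0.02), and 3 rose and 2 fell in BAP1 KO (median 0.41). SLC2A1, which encodes GLUT1, was measured at 380 and 278 CPM in BAP1 KO, against 104 and 114 CPM in control. Control lay below WT, at −0.89 on the log2 scale (SE 0.19, adjusted p = 0.00675 by edgeR). The part of this low control level in the BAP1 KO change was not tested. In BAP1 KO SLC2A1 rose by 1.60 (SE 0.20, adjusted p = 0.000949 by edgeR). In MLL4 KO it was measured at 372 and 267 CPM, against 192 and 210 CPM in WT (0.67, SE 0.19, adjusted p = 0.0441 by edgeR), a call lost when any 1 of the 8 libraries was left out (adjusted p of 0.0516 to 0.181).

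HKDC1, a hexokinase family member, was measured at 0.67 and 0.926 CPM in BAP1 KO, against 34.8 and 30.6 CPM in control, the largest change of this list (−5.36, SE 0.70, adjusted p = 0.00273 by edgeR). The WT libraries were also low, at 1.28 and 0.875 CPM, and control against WT gave 4.93 (SE 0.68, adjusted p = 0.0017 by edgeR). The part of the high control level in the BAP1 KO change was not tested. The BAP1 KO calls of SLC2A1 and HKDC1 held in all 20 alternatives. SLC2A10, HK3 and SLC2A2 were among those too low to test.

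In the thioredoxin system, which TXNIP binds, 2 of 14 tested genes rose and none fell in MLL4 KO, and 3 rose and 3 fell in BAP1 KO, with a median of −0.01 in each. MAP3K5 encodes ASK1, a stress kinase held inactive by reduced thioredoxin. It was measured at 139 and 164 CPM in BAP1 KO, against 43.9 and 42.8 CPM in control (1.80, SE 0.13, adjusted p = 6.66e-05 by edgeR). In MLL4 KO it was measured at 34.9 and 34.8 CPM, against 23.5 and 20.9 CPM in WT (0.65, SE 0.13, adjusted p = 0.0161 by edgeR), a call lost without MLL4 KO replicate 2 or WT replicate 2 (adjusted p up to 0.0671).

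The peroxiredoxins PRDX6 and PRDX2, peroxide-reducing enzymes, rose in BAP1 KO, in all 20 alternatives. PRDX2 was measured at 167 CPM in both BAP1 KO libraries and at 84.2 and 85.3 CPM in control. The WT libraries stood near the BAP1 KO level, at 180 and 169 CPM. Control against WT gave −1.04 for PRDX2 (adjusted p = 0.00023 by edgeR) and −0.58 for PRDX6 (adjusted p = 0.00455 by edgeR). The part of the low control level in both rises was not tested. PRDX6 was measured at 344 and 300 CPM in BAP1 KO, against 119 and 114 CPM in control (1.47, SE 0.12, adjusted p = 0.000141 by edgeR). PRDX4, their counterpart in the endoplasmic reticulum, fell by 0.77 (SE 0.14, adjusted p = 0.0065 by edgeR), a call lost without BAP1 KO replicate 1 or control replicate 2 (adjusted p up to 0.0739).

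FOXO target genes and glucocorticoid-induced genes were counted because TXNIP is known to respond to FOXO factors and to glucocorticoids in other cells. Of 18 FOXO targets 7 rose and none fell in MLL4 KO (median 0.72), and 2 rose and 5 fell in BAP1 KO (median 0.08). Of all tested genes, 8.14% rose and 9.11% fell in MLL4 KO, a background that shrank to 18 genes in the fit to the 4 libraries compared, and 11.7% rose and 9.81% fell in BAP1 KO. CDKN1B, the cell cycle inhibitor p27, rose in MLL4 KO, at 72.8 and 59.5 CPM against 33 and 26.3 CPM in WT (1.16, SE 0.15, adjusted p = 0.00663 by edgeR). FBXO32, a ubiquitin ligase subunit of muscle atrophy, fell in BAP1 KO, at 1.66 and 1.42 CPM against 10.4 CPM in both control libraries (−2.75, SE 0.24, adjusted p = 0.000215 by edgeR).

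PDK4, which restrains pyruvate oxidation, also fell in BAP1 KO, at 0.383 and 0.356 CPM against 3.37 and 4.49 CPM in control (−3.40, SE 0.52, adjusted p = 0.00249 by edgeR). The BAP1 KO calls of FBXO32 and PDK4 held in all 20 alternatives. Control against WT, which shares its libraries with both comparisons, gave 10 of the 18 FOXO targets higher and none lower (median 0.79), beside 19.2% of all tested genes higher and 19.5% lower.

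Of 10 tested glucocorticoid-induced genes 4 rose and 1 fell in MLL4 KO (median 0.46), and 1 rose and 1 fell in BAP1 KO (median −0.21). ZBTB16 was not tested. KLF9, which rose in MLL4 KO, is counted both here and among the FOXO targets. The BAP1 KO counts are near the shares of all tested genes, 11.7% higher and 9.81% lower, and in MLL4 KO those shares were 8.14% and 9.11%. TSC22D3, which encodes the glucocorticoid-induced leucine zipper, was measured at 29.9 and 36.7 CPM in MLL4 KO, against 6.82 and 5.25 CPM in WT. It rose by 2.47 (SE 0.28, adjusted p = 0.00455 by edgeR). The unedited control libraries stood at a similar level, 33.6 and 34.3 CPM, and control against WT gave 2.49 (SE 0.28, adjusted p = 0.000358 by edgeR). Among the list genes named here, TSC22D3 had the only MLL4 KO call that also passed in the fit to the 4 libraries compared.

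DDIT4, a stress-induced inhibitor of mTORC1, had opposite signs in the knockouts, as ARRDC4 did. It was measured at 193 and 271 CPM in MLL4 KO, against 66 and 27.3 CPM in WT (2.32, SE 0.56, adjusted p = 0.0401 by edgeR). In BAP1 KO it was measured at 104 and 256 CPM, against 705 and 721 CPM in control (−1.99, SE 0.55, adjusted p = 0.0488 by edgeR). Control against WT gave 3.94 (SE 0.60, adjusted p = 0.00365 by edgeR), more than either knockout change. The libraries of both knockouts lay between those of WT and control, as for ARRDC4, and the part of this gap in the opposite signs was not tested. Both knockout calls lay near the threshold. The MLL4 KO call was lost without either MLL4 KO library, WT replicate 2 or either control library (adjusted p up to 0.175), and the BAP1 KO call without either MLL4 KO library, BAP1 KO replicate 1 or either control library.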

How the data were processed

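RNA-seq was measured in 8 of the series' 23 samples; the 15 ChIP-seq samples were not analysed here. Each library came with a deposited table that gives, per the file headers, a read count and an RPKM for every RefSeq transcript. The authors deposited whole, unscaled counts, and deposited RPKM are counts corrected for transcript length and depth. Per the submitters' processing notes, hg38, bcl2fastq, Bowtie2, STAR and SICER 1.1 are named, with no roles stated. How reads were counted, and the strand setting and annotation, are left unstated in the labels and headers used here, so antisense or overlapping genes cannot be told apart, and isoforms that share exons share reads.

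Of 88819 rows, 605 had no symbol in the RefSeq table of GRCh38.p14 (0.23% to 0.252% of counts) and were left out; each gene was represented by its row with the highest mean count. edgeR 4.0.16 (R 4.3.3) was run on the counts with filterByExpr, TMM scaling and a robust quasi-likelihood fit of 4 group means to all 8 libraries. Tests were two-sided, with Benjamini-Hochberg adjustment over 16831 genes and a threshold of 0.05. Depth was 24.8 to 42.2 M gene counts per library, and the 2 libraries of a group limit the precision of each SD. The script was tested on simulated data. A first bound on the recovery of large changes over all genes was missed there. It was replaced by a bound for genes with a mean of at least 5 CPM and a check of p-values without a change. Alternatives covered scaling (RLE, upper-quartile), the tool (DESeq2 1.42.0, limma-voom 3.58.1), 2 filters, 2 choices of transcript row, a non-robust fit, the 4 libraries compared, a replicate block, each library left out and, chosen after seeing the data, a crossed block.

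The 6 genes, the 8 lists (104 entries, in which HK2, SLC2A2 and KLF9 are repeated) and the tests were chosen with earlier results of these data known. Genes were named by rule: the 6 members, the 5 genes most correlated with ARRDC4, and list genes past the threshold (up to 4 per list and knockout, by smallest p), of which the text gives part. ARRDC4 got no test. Values of some list genes are not reported here.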

Additional observations from a re-analysis of the deposited data

Results flagged for a closer look

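The change of ARRDC4 in MLL4 KO minus its change in BAP1 KO was 4.22 on the log2 scale, because both MLL4 KO libraries lay above WT and both BAP1 KO libraries below control. This difference was not tested, since the gene was chosen for it. WT and control, against which the changes were measured, stood at the lowest and the highest level of ARRDC4 in the series, and the part of this gap in the difference was not tested.

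The change of ARRDC2 in MLL4 KO minus its change in BAP1 KO was 0.70 (SE 0.19, adjusted p = 0.0407 by edgeR); the change was positive in both knockouts. It was past the threshold in 11 of 19 alternatives.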

How the results depend on the processing

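Over 385 alternative values of the members' 20 results, 341 were rated the same as the main fit. For the tested members this means the same direction and side of the threshold. For ARRDC4, which has no threshold, it means the same direction and a shift within the spread between its libraries. Only 2 values changed sign, both of MLX (0.00 in MLL4 KO without WT replicate 2, and −0.04 in BAP1 KO without BAP1 KO replicate 2). For list genes only the 44 results already called in the main fit and named by rule were followed, so no call could be gained. Of their values 727 were kept, 152 lost their call and 0 reversed. ARRDC4 kept its direction in every alternative run, and the difference between its knockout changes stayed between 3.94 and 4.54. These runs refit the libraries that ARRDC4 was chosen from. Its stability, which is counted among the 341, is therefore no support for its changes.

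The fit to the 4 libraries compared gave 18 calls in MLL4 KO and 6562 in BAP1 KO; it lost ARRDC2 (0.81, adjusted p = 0.094) and MLXIP (−0.38, adjusted p = 0.181) in MLL4 KO and ARRDC2 in control against WT (0.37, adjusted p = 0.0829), and estimates the spread from fewer samples. No such fit exists for the difference between knockouts.

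Same-numbered libraries did not deviate together (correlation of deviations −0.189 for MLL4 KO and WT, −0.001 for BAP1 KO and control), so the numbers were not taken as pairs. With the replicate block, 438 genes were called in MLL4 KO, 2308 in BAP1 KO and 1216 for the difference; ARRDC2 (0.81, adjusted p = 0.0538, and 0.70, adjusted p = 0.117, for the difference) and MLXIP (−0.38, adjusted p = 0.115) lost their calls. The crossed pairing gave 3806, 4101 and 3285 calls. The block was not run for control against WT.

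Leaving out 1 library gave 347 to 5326 calls in MLL4 KO, where every library but MLL4 KO replicate 1 moved the count by over 1.5 times, and 1036 to 4965 in BAP1 KO, where each BAP1 KO and control library did. It gave 662 to 4532 calls for the difference and 3147 to 7248 in control against WT. The log2 values ranged from 0.70 to 0.93 (ARRDC2), −0.42 to −0.32 (MLXIP) and −0.34 to 0.00 (MLX) in MLL4 KO, and from −0.04 to 0.12 (MLX) in BAP1 KO. For the difference they ranged from 0.62 to 1.26 (ARRDC3) and 0.58 to 0.82 (ARRDC2). For control against WT they ranged from 0.28 to 0.51 (ARRDC2), −0.56 to −0.47 (MLXIP) and −0.48 to −0.13 (MLX).

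MLXIP in MLL4 KO missed the threshold with upper-quartile scaling (−0.29, adjusted p = 0.0783), no filter (−0.39, 0.0533), the longest transcript row (−0.36, 0.0516) and summed rows (−0.39, 0.057). The ARRDC3 difference passed with upper-quartile scaling (1.01), DESeq2 (0.89), limma-voom (0.94), no filter (0.91), a 1 CPM filter (0.93) and the crossed block (0.93). The ARRDC2 difference was lost with summed rows (0.70, adjusted p = 0.0571), and its control against WT call with RLE (0.37, 0.0567) and DESeq2 (0.37, 0.0709). The cause of these shifts was not tested. Upper-quartile scaling gave 1460 higher and 1042 lower for the difference, against 1225 and 1362.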
